A study of Mus musculus with 3 samples.

Results

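The mitosis and spindle genes described here are 49 genes whose products drive chromosome segregation and cell division, read on microarrays of long-term hematopoietic stem cells (LT-HSCs) of the mouse. They were chosen by name, and every probe carrying one of the 49 gene names in the array files was taken, which gave 98 of the 56605 probes and 49 of the 37072 gene names on the array. Each gene was read by its probe with the highest mean signal over the arrays, and the remaining probes of a gene served as a check. The members hold Cdk1 with its cyclins and activators (8 genes), polo, aurora and chromosomal passenger genes (6), the spindle assembly checkpoint (5), the centromere and kinetochore (6), the spindle and its motors (5), condensin and chromosome structure (6), anaphase (4), cytokinesis (6), and a group of regulators and a proliferation marker (3).

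LT-HSCs were sorted from bone marrow of C57BL/6J mice 11 weeks old, as LSK cells (lineage markers absent, Sca-1 and c-Kit present) that were CD150+CD48-Flt3-CD34-, and 1 array per genotype was hybridized with Cy3-labelled RNA. The array methods of the paper that reported these data also name CD41 as absent. AtmsKO cells came from CAG-CreERT2 mice with a floxed Atm gene, and Atmp38dKO cells from CAG-CreERT2 mice with floxed Atm and floxed p38alpha, the gene Mapk14. All mice, the WT controls included, received tamoxifen, and the controls carried floxed alleles without Cre, so the WT array is not free of tamoxifen. The CAG promoter drives CreERT2 in nearly all cells, so deletion was not limited to HSCs, and the number of mice behind each array is not given in the sources used here. The submitters' design text places the analysis at a younger age than the sample labels do. Values listed without names run in the order WT, AtmsKO, Atmp38dKO. With 1 array per genotype no difference below has a replicate check, and none was tested.

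Mitosis is run by Cdk1 bound to B-type cyclins, which condenses the chromosomes and builds the spindle until the checkpoint releases the anaphase-promoting complex. Most of these genes are transcribed late in the cell cycle, under the MuvB, B-Myb and FoxM1 complex. The complex acts at short promoter elements called the cell cycle genes homology region (CHR). CCAAT boxes are often found in the same promoters. LT-HSCs are known for being mostly quiescent, so their pooled RNA holds mitotic transcripts mainly from the few cells in cycle. In a pooled sample, fewer cells in cycle and less transcript per cell cannot be told apart.

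The promoters were read first, because shared letters next to the start site are a property of these genes that the choice of members did not use. RefSeq promoters of build GRCm38.p6, 250 bases before to 50 bases after the transcription start, were found for 40 of the 49 members. Aurkb, Ccna2, Cdc25c, Dlgap5, Foxm1, Incenp, Kif20a, Smc4 and Tpx2 had no entry. The CHR letters TTTGAA or TTCGAA, on either strand, were found in 29 of 40 members (72.5%), against 21.7% of the 27025 genes with a promoter in the table. CCAAT, on either strand, was found in 29 of 40 members (72.5%) against 41.1% of all genes. Both kinds of letters stood in 26 of the 40 members (65.0%) and in 8.61% of all genes. In 26 of the 40 members (65.0%) a CHR match began within 50 bases of a start site, where this held for 6.12% of all genes. The E2F-like letters TTCCCGCC or TTTGGCGC, which are typical of genes of the earlier G1/S wave, were found in 1 member (2.5%), Ncapd2, and in 3.07% of all genes. A list of further mitosis genes, described below, held no member. Of its 87 genes with a promoter, 46.0% held CHR letters, 59.8% CCAAT, 31.0% both and 16.1% the E2F-like letters. Matches of different motifs were counted separately even where they overlapped, and a match of these letters is a description and not a mapped binding site.

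Promoter windows of 180 bases, from 150 bases before to 30 bases after the start, are shown 5' to 3' on the strand of the gene in GRCm38.p6, with every CHR and CCAAT match on either strand in capitals. Those of Cdk1, Ccnb2, Cdc20 and Cks1b show the letters in a kinase (Cdk1), a cyclin (Ccnb2), an anaphase activator (Cdc20) and a Cdk-binding subunit (Cks1b). Those of Plk4 and Pttg1 held neither match. They are shown because Plk4, Pttg1 and Nuf2 are the members at least 1.5-fold higher on AtmsKO than on WT that have a promoter in the table, and none of these held either match in the whole 300 bases. Birc5, Mad2l1, Melk, Ncaph and Nusap1, which were not that much higher, held neither match as well. A link between the letters and the differences was not tested. The Pttg1 gene spans chr11:43420244-43427463, so its window reads a start inside the gene, and its outermost start was not read.
Cdk1, chr10:69352883-69353062, minus strand: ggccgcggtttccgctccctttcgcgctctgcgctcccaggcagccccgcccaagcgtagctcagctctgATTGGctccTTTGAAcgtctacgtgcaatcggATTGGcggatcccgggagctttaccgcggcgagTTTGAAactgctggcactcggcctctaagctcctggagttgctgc
Ccnb2, chr9:70421525-70421704, minus strand: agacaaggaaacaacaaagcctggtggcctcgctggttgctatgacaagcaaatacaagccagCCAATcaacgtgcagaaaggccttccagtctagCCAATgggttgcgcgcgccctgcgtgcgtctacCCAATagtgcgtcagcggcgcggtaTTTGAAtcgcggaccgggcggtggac
Cdc20, chr4:118437314-118437493, minus strand: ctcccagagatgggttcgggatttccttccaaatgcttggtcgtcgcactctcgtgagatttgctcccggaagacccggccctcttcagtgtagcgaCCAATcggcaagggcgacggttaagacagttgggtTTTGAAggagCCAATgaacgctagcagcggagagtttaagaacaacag
Cks1b, chr3:89418262-89418441, minus strand: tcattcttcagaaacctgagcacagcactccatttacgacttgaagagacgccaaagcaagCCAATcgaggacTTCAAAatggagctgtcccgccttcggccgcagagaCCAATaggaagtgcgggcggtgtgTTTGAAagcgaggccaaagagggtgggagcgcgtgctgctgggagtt
Plk4, chr3:40799801-40799980, plus strand: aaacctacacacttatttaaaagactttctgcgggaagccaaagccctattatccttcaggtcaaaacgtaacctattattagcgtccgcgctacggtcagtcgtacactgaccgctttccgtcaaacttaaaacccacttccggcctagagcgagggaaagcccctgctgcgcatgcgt
Pttg1, chr11:43425952-43426131, minus strand: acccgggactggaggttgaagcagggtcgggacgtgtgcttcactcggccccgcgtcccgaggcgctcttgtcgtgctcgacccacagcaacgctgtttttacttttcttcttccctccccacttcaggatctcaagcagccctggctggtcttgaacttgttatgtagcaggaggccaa
In Cdk1 the CHR letters began 71 and 15 bases before the start, in Cdc20 18 bases before it, in Cks1b 77 and 17 bases before it, and in Ccnb2 at base 5 of the transcript. The Cdk1, Cdc20 and Cks1b windows each held 2 CCAAT matches and the Ccnb2 window 3.

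Members with and without the CHR letters overlapped in their differences between arrays. The 29 members with the letters had a median log2 difference of 0.19 on the AtmsKO array against WT, within a range of -0.54 to 0.52, and the 11 members without them a median of 0.38, within -0.41 to 1.01. For the Atmp38dKO-labelled array against WT the medians were 0.1 with the letters and 0.18 without. These are descriptions over genes that share the same RNA samples.

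The targeted genes were checked on every array before any mitosis gene. Atm was read by a pair of probes near the end of its transcript, at chr9:53247691-53247750 and chr9:53245871-53245930 (mm9, minus strand). The first gave signals of 87.0 for WT, 23.9 for AtmsKO and 86.5 for the Atmp38dKO-labelled array, and the second gave 88.8, 16.3 and 49.0. Atm was therefore clearly lower on the AtmsKO array at both probes (log2 differences of -1.79 and -2.37 against WT), while the Atmp38dKO-labelled array differed by -0.22 at one probe and -1.07 at the other. Mapk14 gave 469, 558 and 616 at one probe and 295, 260 and 345 at the other, and so was not lower on the Atmp38dKO-labelled array (log2 differences of 0.18 and 0.01). The Mapk14 probes start at bases 1134 and 3532 of the transcript, and whether they lie inside the floxed part is not given in the sources used here. This array is called the Atmp38dKO-labelled array throughout, and every direction drawn from it rests on that label.

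The sort was checked against marker genes. All 12 HSC markers, among them Procr, Mecom and Slamf1, were well above background on every array. Cd34, a marker of the cells sorted out, gave signals of 1690, 1670 and 2190, and Flt3 and Cd48 were also above background on all of them. So was Itga2b, which encodes CD41, at 169, 120 and 167. Markers of other cell types were read beside the mitosis genes. The 8 markers of myeloid progenitors, which divide far more than LT-HSCs, had a summed signal of 831, 949 and 1090 and a median log2 difference of 0.44 on the AtmsKO array against WT, with 6 of 8 above 0. Their median was 0.16 for the Atmp38dKO-labelled array against WT, and -0.28 against AtmsKO. The 6 granulocyte markers had summed signals of 2450, 2720 and 3320, and 6 of 6 were above 0 on the AtmsKO array (median 0.19). The 12 HSC markers had medians of 0.11 for AtmsKO and -0.38 for the Atmp38dKO-labelled array, each against WT. No progenitor or granulocyte marker was below background on any array. Erythroid, B and T markers had medians of -0.04, -0.34 and 0.2 for AtmsKO against WT. Of the markers that define T cells, Cd3g was well above background on 1 array, while Cd3e gave 77.8, 92.3 and 138, Cd4 484, 448 and 608, and Lck 87.1, 97.4 and 145, all well above background. Cd8a was dim, at 7.57, 7.96 and 4.77, and not well above background on the Atmp38dKO-labelled array. The part of these cells in the differences between mitosis genes was not tested.

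All 49 members were well above background at their brightest probe on all 3 arrays, where 73.3, 68.9 and 77.7% of all probes were well above background. The median signal of the 49 brightest probes was 215, 266 and 283, where the 75th percentile of all probes was 102, 96.2 and 118. Values below are therefore given as processed signal and as the log2 of the signal minus that percentile of its own array, and each difference is a difference of these log2 values. Signals of different probes depend on the probe and were not compared between genes. The 5 members with the brightest probes were Birc5 (survivin, of the chromosomal passenger complex), with signals of 3430, 4130 and 4440, Cks1b, Mki67, Bub3 and Top2a.

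**Figure D1:**
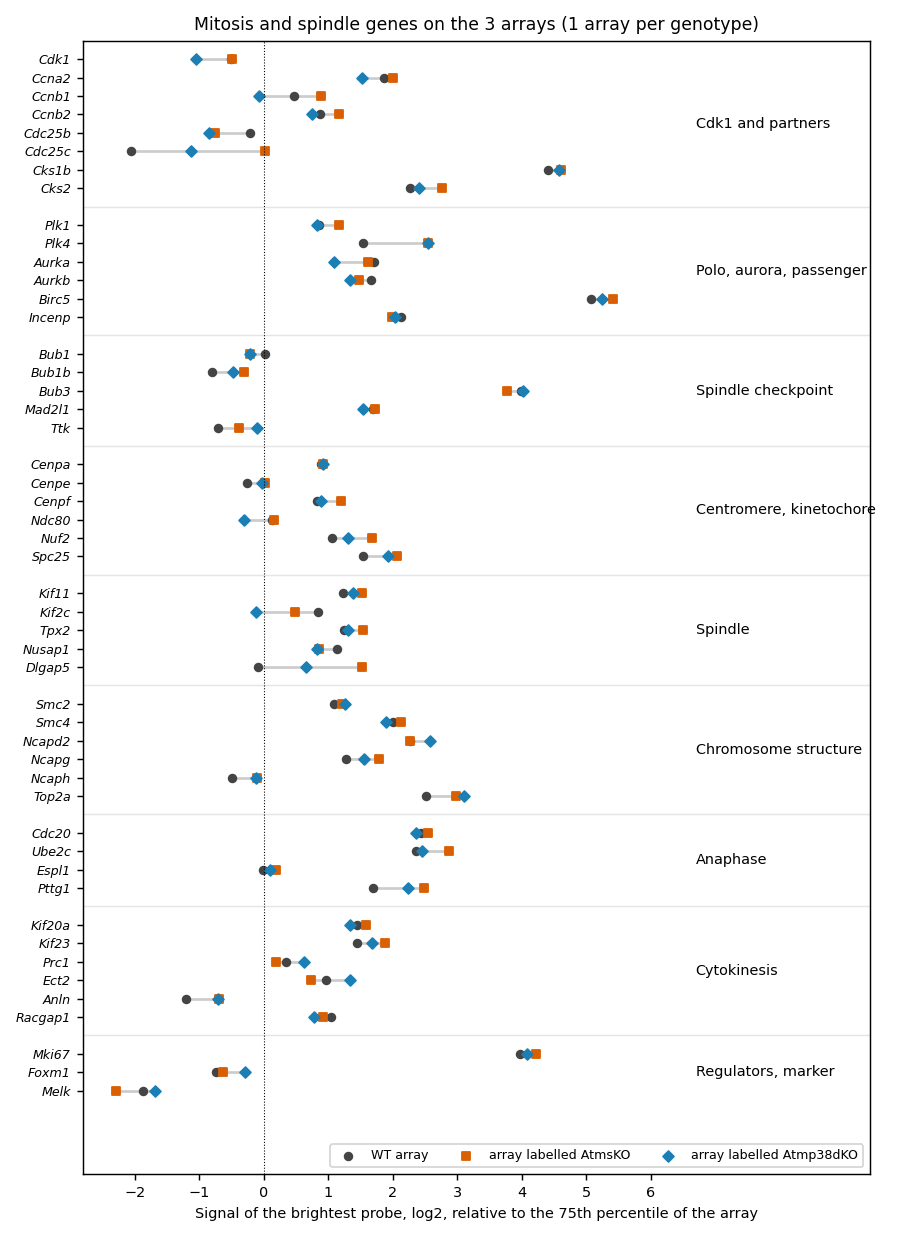
Normalized log2 signal of the brightest probe of each of the 49 members on the 3 arrays, grouped by role (x axis, log2 of the processed signal minus the 75th percentile of the array). Circles are the WT array, squares the AtmsKO array and diamonds the Atmp38dKO-labelled array, 1 array each with no error bar, and grey lines join the lowest and highest value, with the longest lines for Cdc25c, Dlgap5 and Plk4 and 37 of 49 members within 1.5-fold over the arrays.

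Over the 3 arrays 37 of 49 members (75.5%) varied by less than 1.5-fold, where 69.8% of the 25391 genes well above background on every array did, and 3 members, Cdc25c, Dlgap5 and Plk4, varied by at least 2-fold. Among genes with a mean at or above the 75th percentile, 29 of 37 members (78.4%) and 84.7% of 10882 genes varied by less than 1.5-fold. The AtmsKO array was the highest for 32 of the 49 members (65.3%), where it was for 35.0% of the 25391 genes. In 22 members (44.9%) the order was AtmsKO, then the Atmp38dKO-labelled array, then WT, where it was in 17.9% of those genes. In 10 members AtmsKO was highest and the Atmp38dKO-labelled array lowest. WT was the highest array for 8 members (16.3%, where it was for 31.2% of those genes), 7 of which had the Atmp38dKO-labelled array lowest. The Atmp38dKO-labelled array was the highest for 9 members (18.4%, where it was for 33.8%). Replicate spots of 1 probe on 1 array had a median SD of 0.053 on the log2 scale, which covers spot noise only.

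The loss of Atm alone was examined first, by setting the AtmsKO array against the WT array. Of the 49 members 37 were above 0, where 51.0% of all 28866 genes were, and the median log2 difference was 0.20 against 0.01 for all genes. At least 1.5-fold higher were 5 members, Cdc25c, Dlgap5, Plk4, Pttg1 and Nuf2, which is 10.2% of the list, where 10.1% of all genes were that much higher. None was at least 1.5-fold lower, where 10.2% of all genes were. At least 2-fold higher were 3 members, where 3.94% of all genes were, and no member was 2-fold lower, where 4.09% were. Dim genes spread widely and most members are bright. Among the 10882 genes with a mean at or above the 75th percentile, 4.06% were at least 1.5-fold higher and 53.9% were above 0, and of the 37 members in that range 4 were at least 1.5-fold higher and 28 were above 0. In that range 3.25% of genes and no member were at least 1.5-fold lower. With the mean over the probes of a gene in place of the brightest one, 8 members (16.3%) were at least 1.5-fold higher, where 7.67% of 25461 genes were, and with normexp background correction 4 (8.16%), where 1.83% were. The 8 included Prc1 (mean 0.79, SD 1.6 over probes) and Ect2 (mean 0.67, SD 1.27), each below 0 at its brightest probe, and not Plk4 (mean 0.37). The median SD between probes of the same member was 0.27 on the log2 scale, so single members with differences of that size are not told apart from probe spread.

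**Figure D2:**
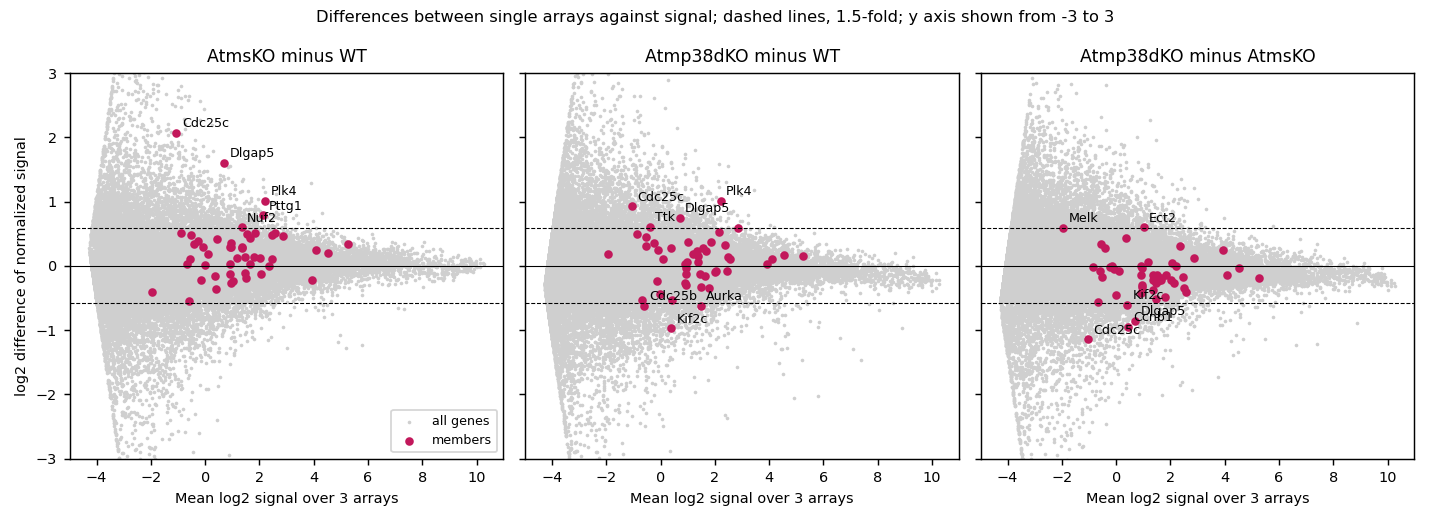
Difference of normalized log2 signal between pairs of single arrays (y axis) against the mean normalized log2 signal over the 3 arrays (x axis), for all genes (grey) and the 49 members (coloured), with members past 1.5-fold named. Dashed lines mark 1.5-fold and values beyond 3 are not drawn, and the grey cloud narrows from left to right while most members sit in its narrower part.

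Cdc25c, a phosphatase that activates Cdk1, gave signals of 24.4, 97.4 and 53.9. It was lowest on WT and highest on AtmsKO, 4.22-fold higher there than on WT (log2 difference 2.08), and its single probe at chr18:34892815-34892874 (mm9) leaves it without a second reading. With normexp background correction its log2 differences against WT were 1.0 on AtmsKO and 0.34 on the Atmp38dKO-labelled array. The latter was 0.93 without that correction. Dlgap5, a microtubule-binding protein that steadies kinetochore fibers, gave 95.5, 275 and 187 in the same order, with log2 differences of 1.60 and 0.75 against WT. With normexp these 2 Dlgap5 differences were 1.17 and 0.55. A second Dlgap5 probe was close to background, at 7.94, 5.40 and 7.65, and gave no usable check. Plk4, the kinase that starts centriole duplication, gave 294, 563 and 689, so that both mutant arrays lay 2.02-fold above WT. Pttg1, the securin that holds separase inactive until anaphase, gave 329, 541 and 552, or log2 differences of 0.79 and 0.53. Nuf2, a subunit of the Ndc80 complex that couples kinetochores to microtubules, gave 212, 306 and 290, or 0.60 and 0.24. At the brightest probes of these 5 genes the WT array was the lowest of the 3. That WT lay below AtmsKO follows from how the 5 were chosen. A dimmer Plk4 probe, given below, was highest on WT.

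The Atmp38dKO-labelled array, whose label names a combined loss that its Mapk14 values do not show, was set against WT and held members past 1.5-fold on both sides. The median was 0.11 against 0.02 for all genes, and 31 of 49 members were above 0, where 52.2% of all 30456 genes were. At least 1.5-fold higher were 4 members, Plk4, Cdc25c, Dlgap5 and Ttk (8.16%, where 11.0% of all genes were), and at least 1.5-fold lower were 3, Kif2c, Aurka and Cdc25b (6.12%, where 10.6% of all genes were). At 2-fold there was 1 member higher, Plk4, and none lower, where 4.02% and 4.49% of all genes were. Among genes with a mean at or above the 75th percentile 3.85% were at least 1.5-fold higher, 4.14% lower and 49.0% above 0, and of the 37 members there 2 were higher, 2 lower and 23 above 0. With normexp background correction 2 members (4.08%) were at least 1.5-fold higher and 1 (2.04%) lower, where 1.64% and 2.12% of all genes were. This comparison and the one of AtmsKO share the WT array, so a low or high WT value moves both.

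Ttk, the Mps1 kinase that starts the spindle checkpoint, gave 61.6, 73.7 and 109, a log2 difference of 0.61 for the Atmp38dKO-labelled array against WT. Kif2c, a kinesin that takes microtubules apart and helps to correct wrong attachments, gave 182, 134 and 108, or -0.36 and -0.97 against WT. Aurka, the kinase of the spindle poles, gave 332, 293 and 251, or -0.10 and -0.62. Cdc25b, which first activates Cdk1 at the centrosome, gave 87.0, 56.7 and 65.6, or -0.54 and -0.62. At these probes Kif2c and Aurka stepped down from WT through AtmsKO to the Atmp38dKO-labelled array, while Cdc25b was lower on both mutant arrays by about the same amount. The other, dimmer Cdc25b probe gave unequal differences of -0.19 and -0.90 against WT.

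The third comparison set the Atmp38dKO-labelled array against AtmsKO, which by their labels differ in p38alpha. Between them Atm was 2.96- and 2.46-fold higher on the Atmp38dKO-labelled array (log2 differences of 1.57 and 1.3), and Mapk14 differed by -0.15 and 0.11. Among the mitosis genes 39 of 49 members were below 0 and 10 above, where 49.5% of all 30017 genes were above, and the median was -0.15 where that of all genes was close to 0. At least 1.5-fold lower were 4 members, Cdc25c, Ccnb1, Dlgap5 and Kif2c (8.16%, where 8.81% of all genes were), and at least 1.5-fold higher were 2, Ect2 and Melk (4.08%, where 10.1% of all genes were). At 2-fold 1 member was lower, Cdc25c, and none higher, where 3.72% and 3.75% of all genes were. Among genes with a mean at or above the 75th percentile 3.91% were 1.5-fold lower, 3.38% higher and 44.5% above 0, and of the 37 members there 3 were lower, 1 higher and 7 above 0. With normexp background correction 0 members were that much higher, where 1.37% of all genes were, and after median centring 0, where 9.67% were. With normexp the median was -0.08 for the members and -0.07 for all genes, and 13 members and 35.8% of all genes were above 0. Ect2, at 0.60 here, was at -0.77 at its other probe well above background. The comparison shares the AtmsKO array with the first one, so a high value there would raise the first and lower this one. Of the marker lists, those of progenitors, granulocytes and HSCs had medians below 0 here, at -0.28, -0.18 and -0.32. Erythroid, B and T markers had medians above 0, at 0.23, 0.15 and 0.15, as had the markers of cells sorted out, at 0.2.

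Cdk1 and its partners shared a direction between the mutant arrays. All 8 of these genes were lower on the Atmp38dKO-labelled array than on the AtmsKO array, with a median of -0.45, while 7 of 8 were above 0 for AtmsKO against WT with a median of 0.25. Between the mutant arrays Cks1b lay at only -0.04, and turned to 0.04 with normexp and 0.05 with quantile normalization. Cdk1, the mitotic kinase itself, gave 71.1, 68.5 and 57.1, so that WT and AtmsKO differed by 0.02 and the Atmp38dKO-labelled array was at -0.53 against WT on the log2 scale. Ccnb1, the main cyclin of mitosis, gave 140, 177 and 112, which is 0.42 above WT on the AtmsKO array and a log2 difference of -0.95 for the Atmp38dKO-labelled array against AtmsKO. Ccnb2, its partner cyclin at the Golgi, gave 185, 215 and 197, and Ccna2, the cyclin of S phase and early mitosis, 370, 384 and 338. Of the small Cdk-binding subunits, Cks1b gave 2160, 2350 and 2810 and Cks2 gave 490, 652 and 626, which is 0.49 above WT on AtmsKO. Cdc25b was the only gene of this group lower on AtmsKO than on WT.

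Polo, aurora and passenger genes were mixed against WT, and 5 of 6 were lower on the Atmp38dKO-labelled array than on AtmsKO, with a median of -0.16. Plk1, the polo kinase of mitotic entry and cytokinesis, gave 184, 214 and 209, a difference of 0.29 for AtmsKO and -0.04 for the Atmp38dKO-labelled array. Aurkb, the kinase of the chromosomal passenger complex, gave 322, 266 and 297 and so was highest on WT. Its partners split, with Birc5 0.34 above WT on AtmsKO and Incenp, the scaffold of the complex, at -0.12. For AtmsKO against WT 3 of these 6 genes were above 0.

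Spindle checkpoint genes, which hold back anaphase until every kinetochore is attached, lay close to 0 with a median of 0.03 in each comparison against WT. Bub1b, the BubR1 subunit of the inhibitory complex, gave 58.4, 77.4 and 84.4, and Bub1, its kinase relative at the kinetochore, 102, 82.9 and 101. Bub3, which carries both to the kinetochore, gave 1610, 1320 and 1910, and Mad2l1, which encodes Mad2, 328, 317 and 343. Bub1b and Ttk were lowest on the WT array, while Bub3 was lowest on AtmsKO.

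Centromere and kinetochore genes lay on 1 side of 0 in each comparison between AtmsKO and another array, some of them very close to 0. All 6 were above 0 for AtmsKO against WT, from 0.02 for Ndc80 to 0.60 for Nuf2 with a median of 0.32. All 6 were below 0 for the Atmp38dKO-labelled array against AtmsKO, with a median of -0.22. There Cenpa lay at only -0.01 and Cenpe at -0.05, where the median SD between replicate spots was 0.053. Spc25, a subunit of the Ndc80 complex like Nuf2, gave 296, 401 and 445. Cenpf, a large protein of the outer kinetochore, gave 180, 219 and 218, and Cenpe, a kinetochore motor, 84.3, 97.7 and 116. Cenpa, the histone variant that marks centromeres, hardly differed at 188, 182 and 222, which is a log2 difference of 0.03 from WT on both mutant arrays. Subunits of 1 complex did not move alike, since Ndc80 gave 111, 107 and 95.3 while Nuf2 and Spc25 were lowest on WT.

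Of the 5 spindle genes, Dlgap5 and Kif2c have been given above. Kif11, the motor that pushes the poles apart, gave 237, 275 and 307, Tpx2, which activates Aurka on the spindle, 241, 278 and 292, and Nusap1, a microtubule-bundling protein, 222, 175 and 210. All 5 were lower on the Atmp38dKO-labelled array than on AtmsKO, from -0.03 for Nusap1 to -0.85 for Dlgap5. Against WT their directions on the AtmsKO array were mixed, with 3 of 5 above 0.

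Condensin and chromosome genes, which compact and untangle the chromosomes, were all at or above WT on the AtmsKO array, with 6 of 6 above 0 and a median of 0.25. Top2a, the topoisomerase that separates sister DNA, gave 581, 757 and 1010, with differences of 0.46 and 0.58 against WT. The non-SMC condensin subunits Ncapg and Ncaph gave 247, 331 and 346, and 72.2, 89.1 and 107. Ncapd2, another subunit, gave 485, 461 and 703 and was close to 0 on AtmsKO. Smc2 and Smc4, the ATPase core of condensin, differed by 0.12 each on AtmsKO. For the Atmp38dKO-labelled array against AtmsKO, 3 of these 6 genes were above 0 and 3 below.

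At their brightest probes all 4 anaphase genes were above 0 on the AtmsKO array against WT, with a median of 0.35. All 4 were below 0 for the Atmp38dKO-labelled array against AtmsKO, with a median of -0.22. Ube2c, the ubiquitin-conjugating enzyme of the anaphase-promoting complex, gave 521, 702 and 650, and Pttg1 showed the largest difference of the group. Cdc20, the activator of that complex, gave 551, 561 and 606, and Espl1, separase, 101, 109 and 126, with log2 differences of 0.10 and 0.19 on AtmsKO. The second Cdc20 probe, nearly as bright at 541, 480 and 469, was at -0.10 on AtmsKO against WT. It was at -0.33 for the Atmp38dKO-labelled array against AtmsKO.

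Cytokinesis genes split evenly, with 3 of 6 above 0 for AtmsKO against WT. Anln, the anillin that organizes the contractile ring, gave 43.8, 59.3 and 72.1, and Kif23, the motor of the centralspindlin complex, 276, 355 and 375, so that WT was lowest for both. Racgap1, the partner of Kif23 in that complex, gave 208, 181 and 201. Ect2, which activates RhoA at the cleavage site, gave 198, 160 and 297 and was 1.52-fold higher on the Atmp38dKO-labelled array than on AtmsKO at this probe, while its other probe lay at -0.77 in the same comparison. Prc1, the bundler of the central spindle, gave 128, 109 and 181. Kif20a, a kinesin of the central spindle, varied little, at 278, 290 and 295.

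Mki67, whose protein Ki-67 marks cells in cycle, gave 1600, 1800 and 1990. Relative to the percentile of each array these were differences of 0.25 and 0.10 against WT, so the higher raw signal on the Atmp38dKO-labelled array came with a brighter array as a whole. Foxm1, the transcription factor behind many of these genes, gave 60.7, 62.2 and 96.1, and Melk, a kinase used as a marker of dividing progenitors, 27.7, 19.7 and 36.5, with the lowest value on AtmsKO. Foxm1 and Melk therefore had differences of 0.11 and -0.41 on the AtmsKO array, where the median member stood at 0.20.

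**Figure D3:**
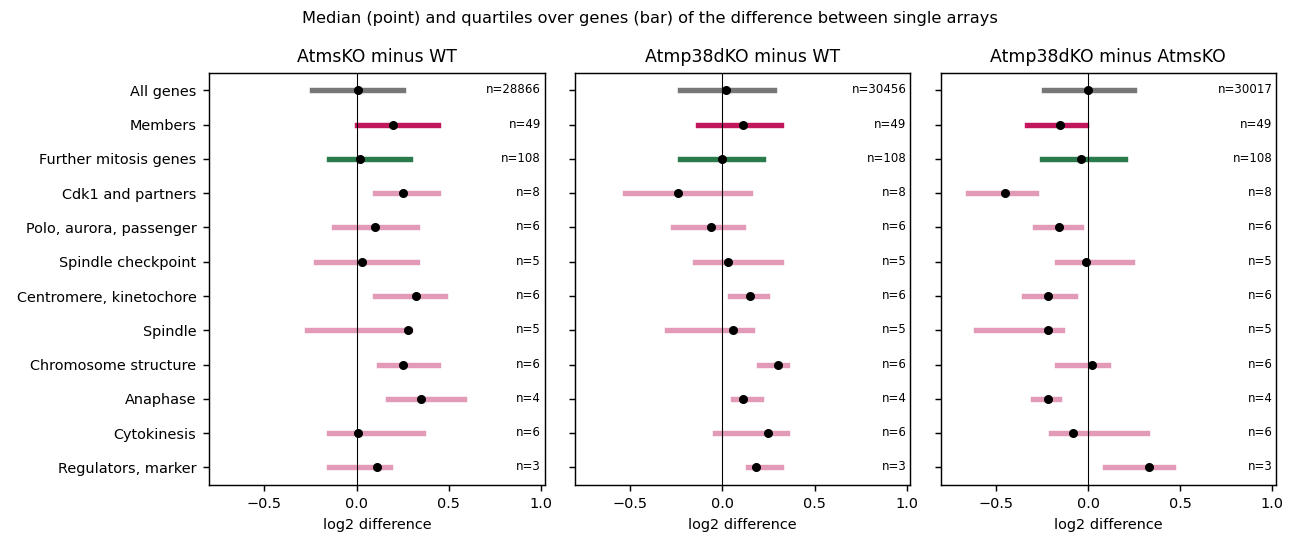
Median (point) and lower to upper quartile over genes (bar) of the log2 difference between single arrays, for all genes, the 49 members, 108 further mitosis genes and the members by role, with the number of genes at the right. Bars are spread over genes and no error of a genotype, and in the right panel the bars of all 49 members and of the groups of Cdk1, polo and aurora, kinetochore, spindle and anaphase lie wholly left of 0.

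Other genes of mitosis, on a list of 108 that holds no member, were read the same way, and all 108 were well above background on every array. Their medians were 0.02 and 0.00 for AtmsKO and the Atmp38dKO-labelled array against WT and -0.04 between these, close to those of all genes. At least 1.5-fold higher and lower were 6 and 8 genes for AtmsKO (5.56% and 7.41%, where 10.1% and 10.2% of all genes were). For the Atmp38dKO-labelled array these were 9 and 11 (8.33% and 10.2%, where 11.0% and 10.6% were), and for the latter against AtmsKO 7 and 9 (6.48% and 8.33%, where 10.1% and 8.81% were). The shift of the 49 members was thus not seen in the median of this longer list. Cenpi, of the inner kinetochore, gave 19.1, 36.9 and 46.6 (1.03 and 1.07 against WT), and Casc5, the kinetochore scaffold Knl1, gave 58.0, 93.0 and 142 (0.76 and 1.07). Zwilch, of the complex that brings dynein to kinetochores, was 0.82 above WT on AtmsKO and was the lowest gene of the list for the Atmp38dKO-labelled array against AtmsKO, at -1.05.

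On the lower side for AtmsKO against WT, Gtse1, a microtubule-binding regulator of G2, gave 69.4, 24.6 and 44.9 (-1.42 on AtmsKO). Esco2, which acetylates cohesin in S phase, followed at -0.99, and Cenpu, of the inner kinetochore, at -0.87. Against WT the Atmp38dKO-labelled array was lowest for Cenpu at -1.44, Kif18a, a kinesin that limits chromosome oscillation, at -1.04, and the polo kinase Plk2 at -0.92, with Sgol2a, a protector of centromeric cohesin, at 0.94 on the higher side. Between the mutant arrays Pds5a, a cohesin cofactor, gave 265 on AtmsKO and 784 on the Atmp38dKO-labelled array (1.27), Ska2, of the outer kinetochore, differed by 1.03 and Fam64a by 0.91. Plk2 at -0.85 and Cit, the citron kinase of cytokinesis, at -0.81 were on the lower side.

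A second kind of check was to ask whether separate probes of the same gene gave like values. Of the 49 members 18 had 1 probe and 31 had 2 or more, up to 5, and 28 members had at least 2 probes well above background on all arrays. For AtmsKO against WT, every probe was higher in 12 of these 28 members, every probe lower in 4, and the probes pointed different ways or lay at 0 in 12. Probes pointing both ways were found in 35.7% of the 28 members, against 57.5% of 7744 genes read by as many probes. The 12 with all probes higher were Birc5, Ccna2, Ccnb1, Cenpf, Cks1b, Cks2, Mad2l1, Ncaph, Pttg1, Smc2, Smc4 and Spc25, and the 4 with all lower were Cdc25b, Incenp, Kif2c and Racgap1. For the Atmp38dKO-labelled array against WT probes pointed both ways in 67.9% of the members and 55.8% of all such genes, with 6 members all higher and 3 all lower. Against AtmsKO it was lower at every probe in 13 of 28 members and higher at every probe in 1, Incenp, with both ways in 14 of 28, where 55.0% of all such genes were split.

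Ccnb1 had probes that all pointed one way in both comparisons that involve AtmsKO. Its 4 probes gave differences between 0.20 and 0.42 for AtmsKO against WT (mean 0.33, SD 0.11 over 4 probes) and between -1.25 and -0.11 for the Atmp38dKO-labelled array against AtmsKO (mean -0.66, SD 0.53). Pttg1 was higher on AtmsKO at both of its probes, by 0.79 and 0.45. Cdc25b was lower on the Atmp38dKO-labelled array than on WT at both of its probes, at -0.62 and -0.90. Cenpf was higher on AtmsKO at both, by 0.36 and 1.04.

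**Figure D4:**
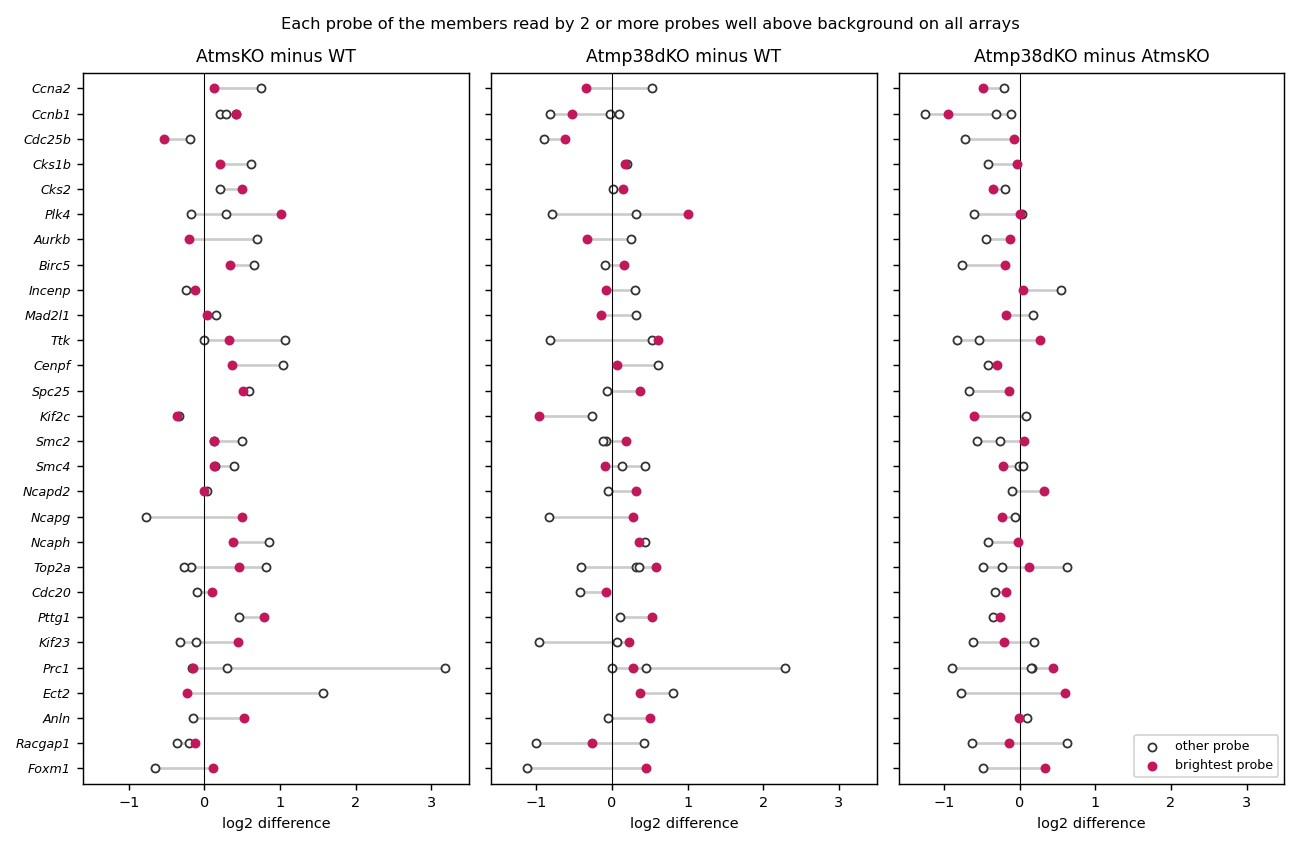
Log2 difference between single arrays at every probe of the 28 members with 2 or more probes well above background on all arrays, the brightest probe filled and the others open (x axis, log2 difference). Grey lines join the probes of a gene, and they cross 0 for Plk4, Ect2 and Prc1 in the left panel while all 4 probes of Ccnb1 lie right of 0 there and left of 0 in the right panel.

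Other members depended on the probe. The 30 bases at the 5' end of each 60-base probe are shown for Plk4 and Prc1, which read separate stretches of the same gene with opposite or very unequal results.
Plk4 brightest probe, chr3:40605770-40605906: cattgccagttgaaacacccctctgtcttg
Plk4 second probe, chr3:40609055-40609114: tttggactagcaacgcagttgaatatgcca
Plk4 dimmer probe, chr3:40618961-40620246: gcaggagtatcttccatcagttacacatca
Prc1 brightest probe, chr7:87460602-87460661: ttttgttcgcggacatttgattaatgctgt
Prc1 weaker probe, chr7:87457513-87457572: ccaggactttttaagcttctcccttgcata
Positions are on mm9, plus strand, as the files give them, and a span longer than the probe covers a gap between its aligned blocks. The brightest Plk4 probe gave log2 differences of 1.01 and 1.01 for AtmsKO and the Atmp38dKO-labelled array against WT. The second gave 0.29 and 0.32, with signals of 170, 196 and 246, and the dimmer probe -0.18 and -0.79, with 63.7, 53.3 and 42.8. The files assign the brightest probe to another RefSeq transcript than the other two shown, so the 2.02-fold difference holds for that probe and not for Plk4 as a whole. The weaker Prc1 probe, assigned to an Ensembl transcript, gave 8.10, 69.5 and 45.9, a difference of 3.18 for AtmsKO against WT, where the brightest Prc1 probe gave -0.15.

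Ect2 had a similar split, with a weaker probe at 14.7, 41.5 and 29.9 (1.57 for AtmsKO against WT) beside -0.23 at its brightest. Foxm1 was at 0.11 and 0.45 at its brightest probe and at -0.65 and -1.13 at the next, so its direction against WT is not settled here. The Ttk difference of 0.61 on the Atmp38dKO-labelled array stood beside 0.53 and -0.82 at its other probes. Aurkb was at -0.20 at its brightest probe and 0.70 at the other on AtmsKO. Top2a was at 0.46 at its brightest probe on AtmsKO and at -0.18, 0.81 and -0.27 at the others. Ncapg was at 0.50 and -0.77, and Kif23 at 0.44, -0.33 and -0.11. Kif2c was lower than WT on the Atmp38dKO-labelled array at both probes, at -0.97 and -0.26, but the second differed from AtmsKO by 0.08. Cdc25c, Nuf2, Aurka, Cdk1, Plk1, Mki67, Melk and Dlgap5 had no second probe well above background on all arrays, and their values rest on 1 probe.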

How the data were processed

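Single-colour Agilent arrays of LT-HSC RNA, 1 per genotype, were analysed. The deposited scanner files hold spot intensity from Agilent Feature Extraction (11.5.1.1 in the submitters' processing notes), run for the authors by a contractor. Their processed intensity, used here, is background-subtracted within the array and not scaled between arrays. Per the file headers, probes are placed on mm9. A second deposited table holds the authors' log2 values, which equaled log2 intensity minus the 75th percentile of the array within 0.02 for 99.8%, 99.7% and 99.6% of probes.

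Control and outlier spots were left out, spots of a probe averaged (Python 3.11.15, pandas 2.3.3), and log2 intensity minus the 75th percentile over non-control probes taken. A probe needed over 50% of its spots above background to count as such, and dimmer values were raised to the lowest such signal. This scaling leaves relative levels only. A gene counted as different past 1.5-fold (0.58 log2) and well above background on the brighter array, with 2-fold also given. Each group is 1 array, so no test was run, and precision is limited by that number. Normexp used limma 3.58.1 in R 4.3.3. The scripts were tested on simulated data.

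The members, gene lists and thresholds were chosen with earlier results of these data known. Full values were given for members past 1.5-fold against WT, the 5 with the brightest probes, and Cdk1, Ccnb1, Plk1, Aurka, Aurkb, Mki67, Foxm1 and Top2a, and of the further mitosis genes the 3 largest differences each way. Values of other members were added after they were seen.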

Additional observations from a re-analysis of the deposited data

How the results depend on the processing

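Of the 75 values recomputed for the members as a set under other settings, 68 stayed close to the reported value and 7 moved. With the values of single genes included, 300 stayed close under other settings and 42 moved. Other probes were also read for the targeted genes and the members chosen for full values, Ect2 not among them. There 5 values stayed close, 42 moved and 4 past 1.5-fold reversed. The median difference of the members kept its direction under each setting tried, but its distance from all genes did not always hold. For the Atmp38dKO-labelled array against AtmsKO, normexp gave a median of -0.08 for the members and -0.07 for all genes. With normexp background correction, which shrinks low signals, 2 members were at least 1.5-fold higher and 1 lower on the Atmp38dKO-labelled array than on WT, where 1.64% and 2.12% of all genes were, and against AtmsKO 0 were higher. That count was 1 with quantile normalization, 0 after centring on the median detected probe and 1 with the mean over probes. With the mean over probes 8 members were at least 1.5-fold higher on AtmsKO than on WT, where 7.67% of all genes were. Prc1 and Ect2 were among these 8 and lay below 0 at their brightest probes.

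Atm on AtmsKO was at -0.81 with normexp and at -2.37 at the other probe, and at -1.07 there on the Atmp38dKO-labelled array. Mapk14 at its other probe was at -0.1 and 0.01. Among differences past 1.5-fold, direction turned at another probe for Kif2c (0.08) and Ect2 (-0.77) against AtmsKO, Plk4 on AtmsKO (-0.18) and the Atmp38dKO-labelled array (-0.79), and Ttk on the latter (-0.82). It also turned among smaller differences, as for Foxm1 on that array (0.45 to -1.13), Aurkb (-0.20 to 0.70) and Top2a (0.46 to -0.18) on AtmsKO, and Ccnb1 on that array (-0.53 to 0.09). The cause was not tested.

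With normexp 1.83% and 1.7% of all genes were at least 1.5-fold higher and lower on AtmsKO than on WT, against 4 and 0 of the 49 members. No array was left out, since each genotype has 1. No paired analysis was possible because each genotype has 1 array.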
